A study of Homo sapiens with 6 samples.

Results

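The 10 genes described here encode the TGF-beta ligands (TGFB1, TGFB2, TGFB3), their receptors (TGFBR1, TGFBR2, TGFBR3), 3 latent TGF-beta binding proteins (LTBP1, LTBP2, LTBP3) and the TGF-beta-induced matrix protein TGFBI. They were taken by gene symbol from a count table of 27469 genes, and all 10 were found. They were measured in HMC3, a human microglial cell line kept in culture by the SV40 large T antigen, in 3 libraries of cells treated with interleukin-33 (IL-33) for 24 h and in 3 Control libraries. Both groups are the same single line, and the dose of IL-33 is not given in the sources used here. Libraries were made with a 3' kit that reads a short tag near the poly(A) tail, so a count does not grow with transcript length and levels were not divided by it. No label states that separate cultures were used, and p-values therefore reflect only how these libraries differ from each other, which may be technical.

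TGF-beta is secreted in a latent form, in which the mature dimer stays bound to its own propeptide, and LTBP1 and LTBP3 can link that complex to the extracellular matrix. Integrins, proteases and mechanical pull release the active dimer, which binds TGFBR2, and TGFBR2 then phosphorylates TGFBR1 and through it SMAD2 and SMAD3. TGF-beta2 binds TGFBR2 weakly on its own and depends on TGFBR3, called betaglycan, for efficient binding. In the mouse brain, TGF-beta signalling is required for the mature identity of microglia.

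HMC3 cells contained far more TGFB2 messenger than that of either other ligand, more TGFBR1 than TGFBR2 or TGFBR3, and more LTBP3 than LTBP1 in every library. The counts of TGFB1 are uncertain, because its exons overlap those of HNRNPUL1. Exons of TGFB2 overlap those of TGFB2-OT1 on the same strand, so TGFB2 may miss reads. None of the 10 genes passed the test for a difference after 24 h of IL-33. By the quasi-likelihood test of edgeR over 12125 genes, 0% passed at a Benjamini-Hochberg adjusted p of 0.05, and 0 of the 10 genes did. At an unadjusted p under 0.05 there were also 0 of the 10 genes, where the share over all genes tested was 2.43%. No gene of the 10 had all IL-33 libraries above or all below the Control libraries, which occurred in 8.06% of all genes tested. The log2 fold change lay above 0 for 5 genes and below 0 for 5, with a median of -0.01, and the median over all genes tested was also -0.01. All 10 passed the low-count filter. These are whole-culture RNA levels, in which fewer cells of a type and less RNA per cell cannot be told apart.

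**Figure D1:**
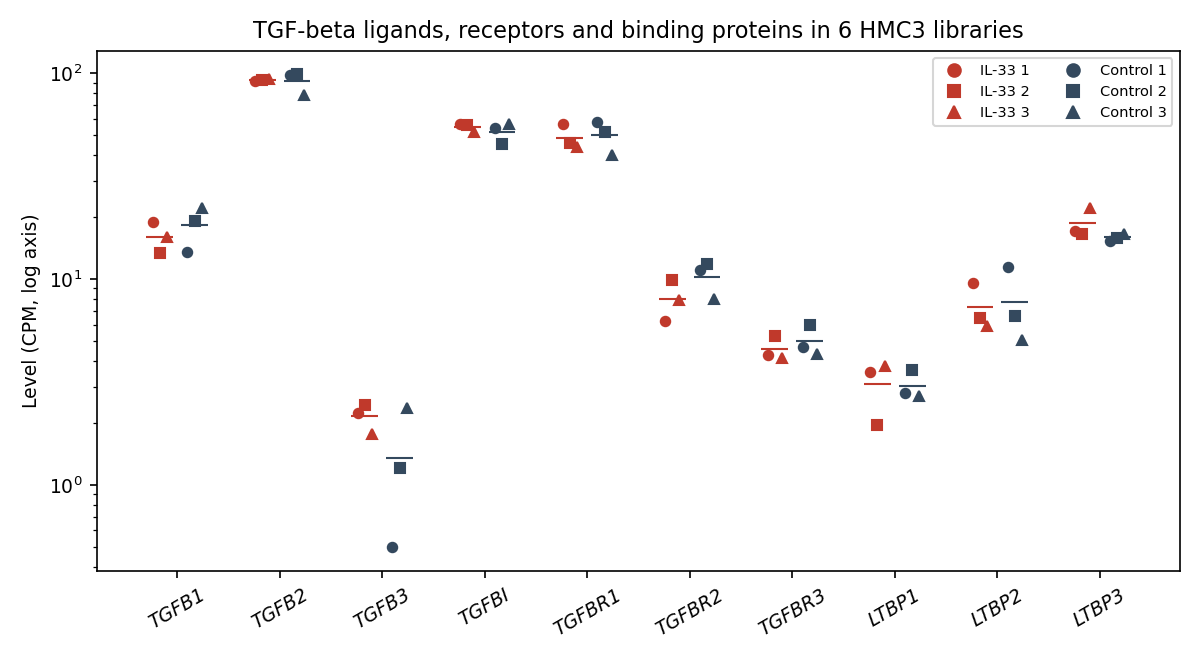
Levels of the 10 genes in CPM (counts per 1e+06 counts, log axis), with 1 point for each library and a short line at each group's mean, IL-33 in red to the left of Control in dark blue. TGFB2 lay near 92.2 CPM and TGFB3 near 1.75 CPM over the 6 libraries, and the points of both groups overlap in each gene.

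The IL-33 libraries held 8294747 to 10217529 counts and the Control libraries 5739947 to 9933395. The 10 genes together took 0.0227% to 0.0273% of a library's counts. Control 3, which has the fewest counts, lay away from the rest on the first principal component, at 55.0, where the others lay at -18.0 to 0.864, and its lowest or highest position among the 6 libraries recurred in 53.3% of all genes tested. Among the 10 genes it was lowest or highest in 5. Of 18 microglial markers, 11 had 0 counts in all 6 libraries (ITGAM, P2RY12, TMEM119, CX3CR1, SPI1, TYROBP, C1QA, C1QB, C1QC, GPR34 and SALL1), and 13, these included, had at most 3 counts in any library. The 14 mesenchymal markers summed to 7454 to 7815 CPM in IL-33 libraries and 7028 to 8108 CPM in Control libraries, led by FN1 and VIM, while COL3A1, LUM and ACTA2 had 0 counts. The defining markers of microglia were thus mostly absent from these cells, which are called HMC3 here. The lists for astrocytes, neurons, oligodendrocytes and endothelial cells summed to at most 3.62, 38.5, 7.35 and 2.02 CPM in a library, and their most abundant genes were SLC1A3, TUBB3, MBP and VWF. The part of any of these genes in the results was not tested.

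Of the 3 ligand genes, TGFB1 differed from TGFB2 and TGFB3 in the bases before the starts shown here. To show this, the 150 bases before the RefSeq transcript start of each are given 5′ to 3′ on the gene's strand (GRCh38.p14), with matches to a searched motif in capitals.
TGFB1: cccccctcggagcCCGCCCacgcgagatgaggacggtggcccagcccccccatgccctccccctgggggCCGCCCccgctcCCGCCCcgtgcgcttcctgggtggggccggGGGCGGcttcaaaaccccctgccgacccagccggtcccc
TGFB2: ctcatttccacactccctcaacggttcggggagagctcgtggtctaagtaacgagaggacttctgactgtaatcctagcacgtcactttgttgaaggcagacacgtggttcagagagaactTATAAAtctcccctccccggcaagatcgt
TGFB3: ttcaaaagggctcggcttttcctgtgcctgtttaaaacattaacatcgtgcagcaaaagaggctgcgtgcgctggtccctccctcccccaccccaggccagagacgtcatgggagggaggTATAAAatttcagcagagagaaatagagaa
The windows are chr19:41353923-41354072 on the minus strand for TGFB1, chr1:218345186-218345335 on the plus strand for TGFB2 and chr14:75981996-75982145 on the minus strand for TGFB3. TGFB3 has 2 RefSeq starts, and the window shown belongs to start 2; that of start 1 held none of the motifs below and had 61.3% G and C. Both strands were searched for the TATA box TATAAA, the GC box GGGCGG, the cyclic AMP response element TGACGTCA, the AP-1 site TGACTCA, the NF-kB consensus and the SMAD box GTCTAGAC. The TGFB1 window held 4 GC boxes and no TATA box, with 80.0% G and C. The TGFB2 window held the TATA box 29 bases before the start, with 50.7% G and C, and that of TGFB3 held it 30 bases before the start, with 51.3%. A TATA box was found in 6.71% and a GC box in 36.8% of all 35116 windows of this length, whose median G and C content was 60.0%. Among the 22 windows of the 10 genes, 2 held a TATA box (TGFB2 and TGFB3), 8 a GC box, 1 the cyclic AMP response element (LTBP1) and 3 the NF-kB consensus (all of TGFBR1, which has 8 starts). Over all windows the cyclic AMP response element was found in 1.40% and the NF-kB consensus in 6.19%. The AP-1 and SMAD letters, in 2.89% and 0.0883% of all windows, were in none of the 22. These matches describe letters only, and a link to level was not tested. TGFB2 and TGFB3, the most and the least abundant ligand, both held the TATA box in the windows shown.

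Of the 3 ligands, TGFB2 was the most abundant in all 6 libraries. TGFB2 encodes an isoform whose propeptide lacks the RGD motif through which integrins act on latent TGF-beta1 and TGF-beta3 (chromosome 1, 218346235 to 218444619, GENCODE 29 on GRCh38, plus strand). It measured 91.6, 92.4 and 94.3 CPM in IL-33 libraries, against 97.7, 98.8 and 78.2 CPM in Control libraries. The IL-33 values lay between the Control values, all 3 above Control 3 and below Controls 1 and 2. The means were 92.8 ± 1.37 CPM with IL-33 and 91.6 ± 11.6 CPM in Control (SD, n = 3 each). The log2 fold change was 0.02 ± 0.12 (SE), and its 95% interval from -0.24 to 0.27 corresponds to a fold of 0.848 to 1.21. With 2606 counts in IL-33 and 2238 in Control libraries, TGFB2 had the most counts and the smallest SE of the 10 genes. Exons of TGFB2-OT1, a noncoding RNA on the same strand with 0 counts, overlap those of TGFB2, so reads of TGFB2 may be missing.

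TGFB1 encodes the isoform most studied in immune regulation and fibrosis (chromosome 19, 41301587 to 41353911, minus strand). It measured 18.9, 13.4 and 16.0 CPM in IL-33 libraries, against 13.6, 19.2 and 22.1 CPM in Control libraries. The groups overlapped, with IL-33 2 lowest of the 6 and Control 3 highest. IL-33 over Control, the log2 fold change was -0.18 ± 0.24, with a 95% interval from -0.68 to 0.32. Exons of TGFB1 and of HNRNPUL1, on the opposite strand, overlap in the annotation. HNRNPUL1 had 14860 counts against 869 for TGFB1. Since no strand setting is stated, the counts of TGFB1 may hold reads of its neighbour or miss reads of its own, and are uncertain.

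TGFB3, a ligand known from palate development in the mouse, was the least abundant of the 10 genes (chromosome 14, 75958099 to 75982991, minus strand). It had 21, 25 and 15 counts in IL-33 libraries, against 5, 10 and 13 in Control libraries. In CPM these were 2.24, 2.44 and 1.77 with IL-33, against 0.496, 1.20 and 2.35 in Control. All 3 counts were higher with IL-33, but the levels overlapped, because Control 3, with fewer counts in all, lay above IL-33 1 and IL-33 3. The log2 fold change was 0.73 ± 0.71, with a 95% interval from -0.74 to 2.21, and the edgeR test gave an unadjusted p of 0.311 and a Benjamini-Hochberg adjusted p of 0.999. Without Control 3 the log2 fold change was 1.35 and the adjusted p 0.857 by the same edgeR test, and without Control 1 it was 0.30. The Control values had a coefficient of variation of 69.4%, where counting alone would give 32.7%. A fold of 0.599 to 4.63 lay within the interval, so that neither a fall nor a several-fold rise of TGFB3 could be told from no difference in these libraries.

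TGFB2 made up most of the ligand counts in both groups. TGFB2 took 83.6% ± 2.10 of the counts of the 3 ligands with IL-33 and 82.1% ± 5.63 in Control (SD, n = 3 each). TGFB1 took 14.5% ± 2.19 with IL-33 and 16.6% ± 4.69 in Control. TGFB3 took 1.58% to 2.26% in IL-33 libraries and 0.444% to 2.29% in Control libraries. The ratio of TGFB2 to TGFB1 counts was 4.86, 6.91 and 5.88 in IL-33 libraries, against 7.18, 5.14 and 3.54 in Control libraries. Control libraries spanned a wider range than IL-33 libraries in that ratio and enclosed it. The summed ligand level was 111 ± 2.46 CPM with IL-33 and 111 ± 8.34 CPM in Control. Since the counts of TGFB1 are uncertain and TGFB2 may miss reads, these shares, ratios and sums are uncertain too.

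**Figure D2:**
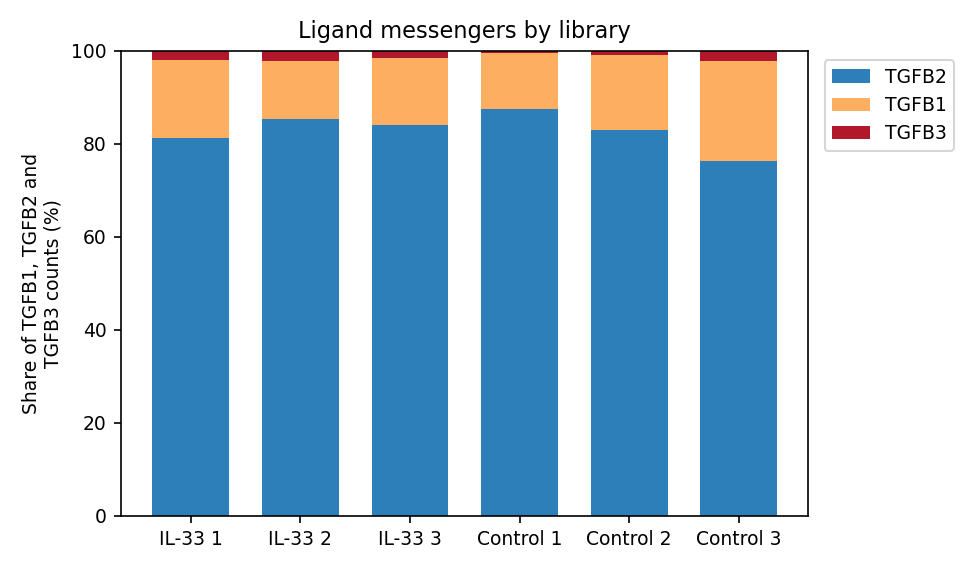
Share of each ligand (%, from 0 to 100) in the counts of TGFB1, TGFB2 and TGFB3 for each library, IL-33 libraries on the left and Control libraries on the right. TGFB2 takes 76.2% to 87.4% in every library, and TGFB3 is the thin band at the top, narrowest in Control 1 at 0.444%.

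Among the receptors, TGFBR1 was the most abundant. TGFBR1 encodes the type I receptor kinase ALK5, which phosphorylates SMAD2 and SMAD3 (chromosome 9, 99104038 to 99154192, plus strand). It measured 56.8, 45.6 and 43.9 CPM in IL-33 libraries, against 57.7, 51.9 and 40.0 CPM in Control libraries. Both groups spread over nearly the same range, with the Control values outermost at either end. Its log2 fold change was -0.04 ± 0.16, with a 95% interval from -0.38 to 0.30.

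TGFBR2, the type II receptor that binds the ligand first, had the largest negative estimate of the 10 genes (chromosome 3, 30606502 to 30694142, plus strand). It measured 6.29, 9.86 and 7.90 CPM in IL-33 libraries, against 11.0, 11.8 and 7.96 CPM in Control libraries. IL-33 1 and IL-33 3 lay below all Control libraries, and IL-33 2 lay above Control 3 only. The means were 8.02 ± 1.79 CPM with IL-33 and 10.3 ± 2.02 CPM in Control (SD, n = 3 each). The log2 fold change was -0.36 ± 0.30 with a 95% interval from -0.99 to 0.27, and the edgeR test gave an unadjusted p of 0.244, the smallest of the 10 genes, and a Benjamini-Hochberg adjusted p of 0.999. It was -0.21 without IL-33 1, -0.54 without IL-33 2 and -0.51 without Control 3.

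TGFBR3, the coreceptor betaglycan, measured 4.26, 5.27 and 4.13 CPM in IL-33 libraries, against 4.67, 6.01 and 4.34 CPM in Control libraries (chromosome 1, 91680343 to 91906335, minus strand). The groups overlapped, with IL-33 3 the lowest and Control 2 the highest. Its log2 fold change was -0.14 ± 0.39, with a 95% interval from -0.96 to 0.69 that rests on 129 counts in IL-33 and 121 in Control libraries.

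The 3 receptor genes kept their order in all 6 libraries. Per count of TGFBR2 there were 9.03, 4.62 and 5.55 counts of TGFBR1 in IL-33 libraries, against 5.23, 4.41 and 5.02 in Control libraries. IL-33 1 was higher than the rest in that ratio, IL-33 3 lay just above the Control range, and IL-33 2 lay within it. The ratio of TGFBR2 to TGFBR3 was 1.75 ± 0.242 with IL-33 and 2.05 ± 0.276 in Control (SD, n = 3 each). The summed level of the receptors was 61.3 ± 5.76 CPM with IL-33 and 65.1 ± 11.3 CPM in Control.

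The latent TGF-beta binding proteins were less abundant than TGFB2 and TGFBR1. LTBP3, which binds the latent complex and is known for roles in bone and tooth formation, measured 17.2, 16.6 and 22.2 CPM in IL-33 libraries, against 15.4, 15.7 and 16.6 CPM in Control libraries (chromosome 11, 65538805 to 65558930, minus strand). IL-33 1 and IL-33 3 lay above all Control libraries, and IL-33 2 lay just under Control 3. The means were 18.6 ± 3.06 CPM with IL-33 and 15.9 ± 0.647 CPM in Control (SD, n = 3 each). Its log2 fold change was 0.23 ± 0.22, with a 95% interval from -0.23 to 0.68 and a Benjamini-Hochberg adjusted p of 0.999 from edgeR. Without IL-33 3 it was 0.09.

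LTBP2, which does not bind latent TGF-beta but is found with fibrillin microfibrils and elastic fibres, spread widely between libraries (chromosome 14, 74498170 to 74612378, minus strand). It measured 9.59, 6.45 and 5.89 CPM in IL-33 libraries, against 11.4, 6.61 and 5.07 CPM in Control libraries. In each group 1 library lay well above the other 2, IL-33 1 and Control 1, and the groups overlapped throughout. The coefficient of variation was 27.3% with IL-33 and 43.0% in Control, where counting alone would give 12.1% and 12.3%. In edgeR the log2 fold change was -0.09 ± 0.36. It was -0.34 without IL-33 1 and 0.32 without Control 1.

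LTBP1, the founding member of the family and a matrix anchor of latent TGF-beta1, measured 3.52, 1.95 and 3.77 CPM in IL-33 libraries, against 2.78, 3.61 and 2.71 CPM in Control libraries (chromosome 2, 32946972 to 33399509, plus strand). IL-33 2 was the lowest of the 6 and IL-33 3 the highest. In edgeR the log2 fold change was 0.01 ± 0.52, and the 95% interval from -1.07 to 1.10 included a fold of 0.475 as well as 2.15. The counts of LTBP3 were 4.37 to 8.50 times those of LTBP1 over the 6 libraries.

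TGFBI encodes an extracellular matrix protein with fasciclin domains that binds collagens and integrins, and it was named for its induction by TGF-beta (chromosome 5, 136028895 to 136063818, plus strand). It measured 56.7, 56.1 and 51.6 CPM in IL-33 libraries, against 54.0, 45.3 and 56.8 CPM in Control libraries. Control 2 was the lowest, and the other 5 libraries lay within a few CPM of each other. The means were 54.8 ± 2.76 CPM with IL-33 and 52.1 ± 5.99 CPM in Control (SD, n = 3 each). Its log2 fold change was 0.08 ± 0.14, with a 95% interval from -0.22 to 0.37.

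In order of their mean level over the 6 libraries, the genes ran TGFB2 (92.2 CPM), TGFBI (53.4), TGFBR1 (49.3), LTBP3 (17.3), TGFB1 (17.2), TGFBR2 (9.14), LTBP2 (7.50), TGFBR3 (4.78), LTBP1 (3.06) and TGFB3 (1.75). TGFB2 lay above TGFBI in 6 of 6 libraries, TGFBR1 above LTBP3 in 6, TGFB1 above TGFBR2 in 6, LTBP2 above TGFBR3 in 6 and TGFBR3 above LTBP1 in 6. TGFBI and TGFBR1 did not differ beyond their spread, with TGFBI higher in 3 of 6 libraries, and LTBP3 was higher than TGFB1 in 3 of 6. TGFBR2 was above LTBP2 in 4 of 6 and LTBP1 above TGFB3 in 5 of 6. Among all genes tested, TGFB2 stood at the percentile 82.4 of mean level and TGFB3 at 5.46.

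How large a difference could have gone unseen varied with the level. For the log2 fold change, the 95% interval stayed between -1 and 1, a fold of 2 either way, for 8 of the 10 genes, all but TGFB3 and LTBP1, and for 73.4% of all genes tested. It lay within a fold of 1.5 either way for TGFB2, TGFBI and TGFBR1, 3 of the 10 genes, and for 48.9% of all genes tested. A p that misses the threshold does not show that the levels were the same.

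**Figure D3:**
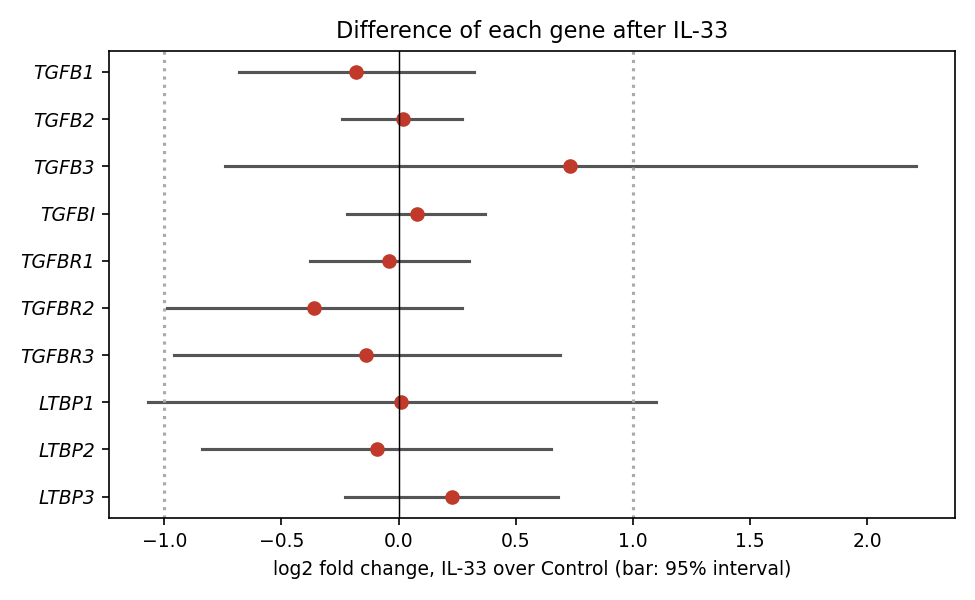
log2 fold change of each gene, IL-33 over Control (points), with its 95% interval derived from the edgeR test (bars) and dotted lines at -1 and 1. Every bar crosses 0, the shortest belongs to TGFB2 (-0.24 to 0.27) and the longest to TGFB3 (-0.74 to 2.21).

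Leaving out 1 library at a time moved the estimates by more than their size in several genes. TGFB3 ran from 0.30 to 1.35 and TGFBR2 from -0.54 to -0.21 on the log2 scale, each keeping its sign. TGFB1 and LTBP3 also kept their sign in every alternative, from -0.36 to -0.03 and from 0.09 to 0.30. The other 6 genes, TGFB2, TGFBI, TGFBR1, TGFBR3, LTBP1 and LTBP2, had an estimate of either sign. Without Control 3, 0 of the 10 genes passed, and the smallest adjusted p among them was 0.853 from edgeR (TGFBR2).

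**Figure D4:**
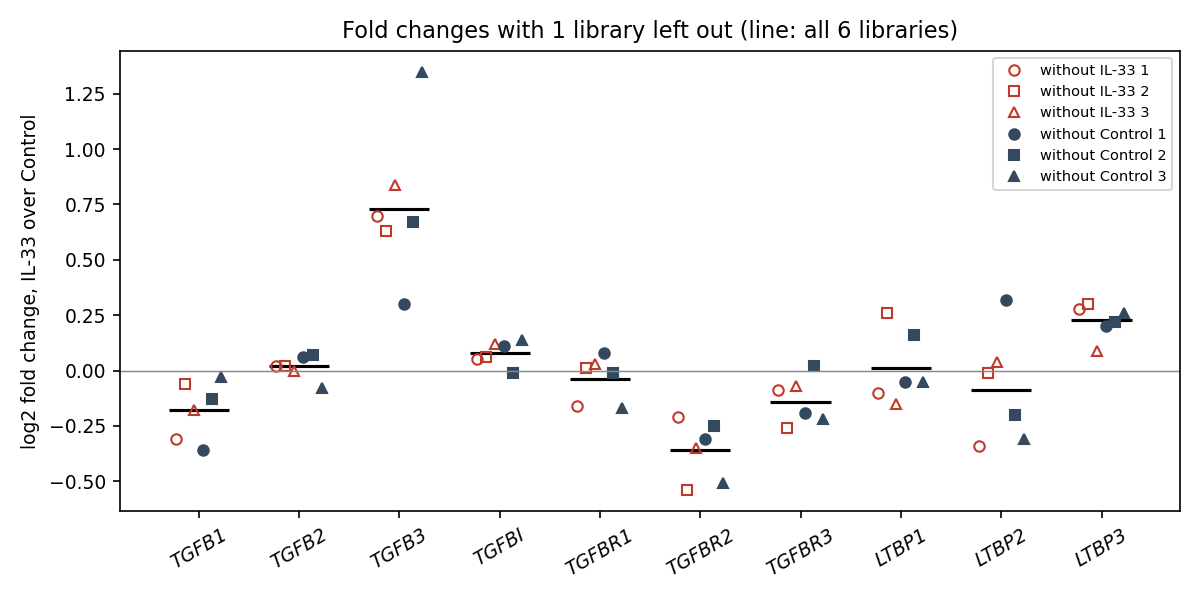
log2 fold change of each gene, IL-33 over Control, refitted without 1 library (symbols; open red where an IL-33 library and filled blue where a Control library was left out), with the value from all 6 libraries as a black line. TGFB3 moves to 1.35 without Control 3 and to 0.30 without Control 1, and LTBP2 ranges from -0.34 to 0.32.

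Genes that act around these 10 were described from 5 lists. Of 20 genes for storage and activation of the latent complex, 12 could be tested and 0 passed in either direction, with 5 above and 7 below 0 and a median log2 fold change of -0.02. ITGB1, an integrin subunit, was the most abundant, at 165 ± 15.3 CPM with IL-33 and 168 ± 5.99 CPM in Control (SD, n = 3 each), and THBS1, a matricellular activator of latent TGF-beta, had a log2 fold change of 0.12 ± 0.12, which ran from 0.02 without Control 3 to 0.21 without IL-33 1 or Control 2. The smallest p of the list belonged to FBN2, a fibrillin gene, with -0.55 ± 0.36, followed by FURIN, the convertase that cleaves the TGF-beta precursor, with 0.30 ± 0.23. The value of FBN2 was -0.17 without Control 2 and -0.88 without Control 1. That of FURIN was 0.59 without Control 3 and 0.14 without Control 2. ITGB6, an integrin subunit that activates latent TGF-beta in epithelia, had 0 counts in all libraries.

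Of 13 coreceptors and other receptors of the superfamily, 9 could be tested, 0 passed, and 6 lay above 0. Their median log2 fold change of 0.42 was the furthest of the 5 lists from the -0.01 of all genes tested, and it was 0.21 without IL-33 1, -0.02 without IL-33 3 and 0.10 without Control 3. It was 0.21 with no low-count filter and -0.10 over the genes at a mean of 10 CPM or more. ACVR2B, an activin type II receptor, measured 6.18, 9.77 and 12.8 CPM in IL-33 libraries, against 2.98, 8.78 and 6.51 CPM in Control libraries, with a log2 fold change of 0.67 ± 0.39. The groups overlapped, and the value was 0.32 without Control 1 and 1.06 without Control 2. ACVR1, a type I receptor for bone morphogenetic proteins, had 0.49 ± 0.35, and 0.18 without Control 3, where it lay lowest at 3.44 CPM. The more abundant BMPR2 and ACVR1B had -0.11 ± 0.14 and 0.00 ± 0.20.

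Of 20 SMAD genes and regulators, 19 could be tested and 0 passed, with 8 above and 11 below 0 and a median of -0.04. At an unadjusted p under 0.05, 1 was higher and 1 lower, where the shares over all genes tested were 1.45% and 0.981%. SMAD9, a SMAD of the bone morphogenetic protein branch, measured 4.05, 7.03 and 4.60 CPM in IL-33 libraries, against 2.98, 2.28 and 0.724 CPM in Control libraries. All IL-33 values lay above the Control values, as in 4.54% of all genes tested. The log2 fold change was 1.33 ± 0.52, and the edgeR test gave an unadjusted p of 0.0193 and a Benjamini-Hochberg adjusted p of 0.999. Without Control 3, in which SMAD9 had 4 counts, the log2 fold change was 0.98. SKI, a corepressor that binds SMAD2, SMAD3 and SMAD4, measured 71.1, 73.1 and 69.9 CPM in IL-33 libraries, against 83.5, 84.0 and 91.0 CPM in Control libraries. Every IL-33 value lay below every Control value, as in 3.51% of all genes tested, with a log2 fold change of -0.27 ± 0.12, an unadjusted p of 0.0341 and an adjusted p of 0.999 by the same edgeR test. NEDD4L, a ubiquitin ligase that acts on activated SMADs, likewise had no overlap between groups and -0.16 ± 0.11. PPM1A, also of this list, had no overlap and -0.31 ± 0.16. Of the 19 genes, 1 thus lay higher and 3 lower without overlap, where the shares over all genes tested were 4.54% and 3.51%. In each of the lists of other receptors, induced genes, and other ligands and antagonists, 1 gene lay higher and 0 lower without overlap. These lists had 9, 26 and 13 tested genes. The list for storage and activation had 0 of 12 in either direction. SMAD5, the most abundant of the list, had 0.05 ± 0.10.

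Of 30 genes that TGF-beta is known to induce in mesenchymal or epithelial cells, 26 could be tested and 0 passed, with a median log2 fold change of 0.02. FN1, which encodes fibronectin, measured 3636 ± 188 CPM with IL-33 and 3708 ± 200.5 CPM in Control (SD, n = 3 each), a log2 fold change of -0.03 ± 0.09, and TAGLN, an actin-binding protein gene, had 0.03 ± 0.09. NEDD9, a scaffold protein gene, had -0.26 ± 0.14, and -0.08 without Control 3. CTGF, the older symbol of CCN2, which encodes a matricellular protein, measured 396, 381 and 426 CPM in IL-33 libraries, against 493, 435 and 420 CPM in Control libraries, with a log2 fold change of -0.17 ± 0.10. In the 95% intervals of 20 of the 26 genes there was no fold of 2 or more in either direction.

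Of 23 genes listed as other ligands and secreted antagonists, 13 could be tested, 0 passed, and the median was 0.02. The list includes BMP1, which encodes a protease. FSTL1, a follistatin-like secreted protein gene, and INHBB, which encodes an activin subunit, were the most abundant and had 0.02 ± 0.09 and 0.02 ± 0.15, INHBB being lowest in Control 3 at 166 CPM. The antagonist GREM1 had -0.25 ± 0.18 and the ligand BMP4 -0.18 ± 0.15, and BMP4 was at 0.00 without Control 3. GREM1 ran from -0.35 without Control 3 to -0.13 without Control 1.

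**Figure D5:**
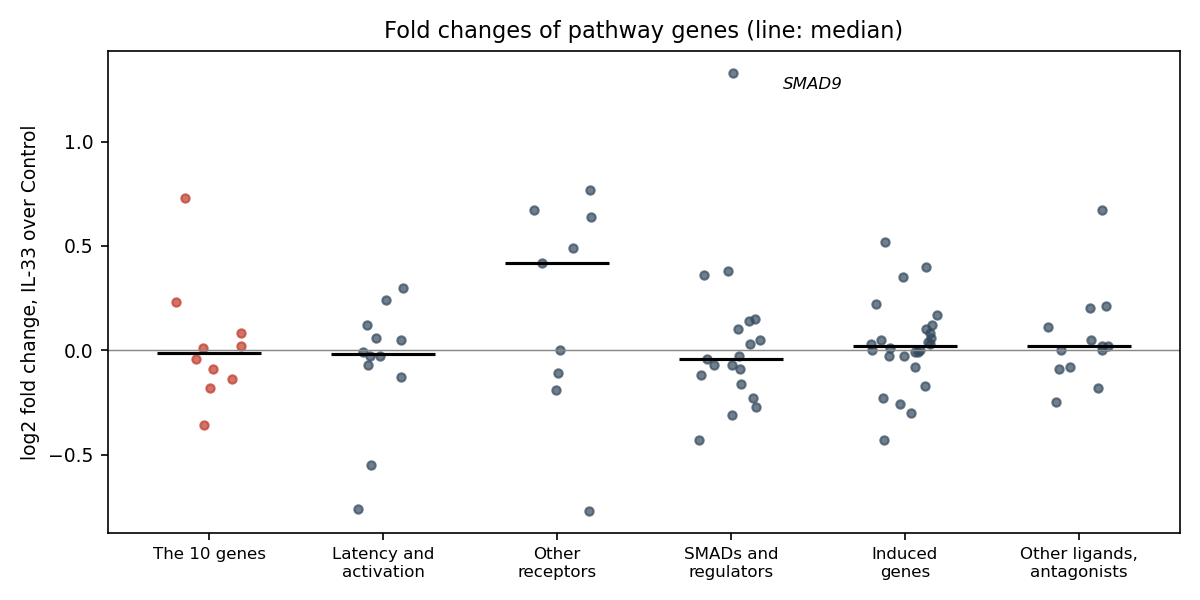
log2 fold change, IL-33 over Control, of the 10 genes (red) and of the tested genes of the 5 lists (dark blue), with a line at each median and points spread sideways for legibility. The medians lie between -0.04 and 0.02 except that of the other receptors at 0.42, and SMAD9 at 1.33 is the highest point.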

How the data were processed

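RNA of 6 HMC3 libraries, 3 with IL-33 and 3 Control, was measured with the Lexogen QuantSeq 3' FWD kit after TRIZOL extraction, per the labels' protocols. The authors deposited 1 table of raw read counts per gene symbol, not normalized. STAR 2.7.5a, HTSeq 0.6.1, edgeR and hg38 are listed with no role, per the submitters' processing notes. No annotation or strand setting is given in the sources used here.

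Of 27470 rows, 1 held no values. Genes were filtered with filterByExpr (count minimum 10, total minimum 15) and scaled by TMM. IL-33 and Control libraries were set against each other with the robust quasi-likelihood test of edgeR 4.0.16 in R 4.3.3, with Benjamini-Hochberg adjustment over 12125 genes. CPM used TMM-scaled totals, and 3 counts corresponded to 0.293 to 0.543 CPM. The SE was derived from the log2 fold change and F statistic of each edgeR test, and the 95% intervals from that SE and a t quantile. Both include the spread between libraries, while the counting coefficients of variation and the floor of 3 counts cover counting error only. Alternatives were DESeq2 1.42.0, limma-voom (limma 3.58.1), other scaling and filters, a block and each library left out. The edgeR test was checked on simulated counts.

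Replicates differed beyond sampling noise (chi-square per degree of freedom 5.56 to 15.8), so none were merged. Positions and overlaps came from GENCODE 29 and upstream windows from RefSeq, for all 10 genes, on GRCh38. The members and the lists were chosen with earlier results of these data known. From each list the 2 genes with the smallest p and the 2 most abundant were named, other genes after their values were seen. Figures were drawn with matplotlib 3.10.9. The summed level of the microglial markers is not reported here.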

Additional observations from a re-analysis of the deposited data

How the results depend on the processing

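No setting gave a call among the 10 genes or among the genes of the 5 lists. Over all genes the count of 0 was 3 without the low-count filter (3 higher), 1 with DESeq2 (1 higher) and 0 to 6 with a library left out (0 to 3 higher, 0 to 3 lower), the 6 arising without Control 3. With the replicate number as a block it was 0, and the log2 fold change of LTBP1 was -0.02 there and -0.06 with limma-voom, against 0.01. The labels do not say that the numbers pair the libraries, and same-numbered deviations correlated at -0.086, 0.027 and -0.136. At a mean of 10 CPM or more, 5 of the 10 genes were tested. At an unadjusted p under 0.05 the count was 295, and 213 with the block, 290 with DESeq2 and 794 without Control 3. With a library left out, estimates ran from -0.08 to 0.07 for TGFB2, -0.01 to 0.14 for TGFBI, -0.17 to 0.08 for TGFBR1, -0.26 to 0.02 for TGFBR3, -0.15 to 0.26 for LTBP1, -0.34 to 0.32 for LTBP2, -0.09 to 0.04 for ITGB1, -0.19 to 0.01 for BMPR2, -0.07 to 0.01 for FN1, -0.03 to 0.07 for TAGLN, -0.17 to 0.15 for INHBB, -0.02 to 0.06 for FSTL1, -0.21 to -0.09 for CTGF, -0.21 to -0.10 for NEDD4L and 0.01 to 0.10 for SMAD5. The cause of these changes was not tested. Depth limits TGFB3, with 89 counts in all, and LTBP1, with 158, most.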

Other observations

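TGFB2-AS1, 3 further rows with related names, IL1RL1 and IL33 were looked at after their values were seen. TGFB2-AS1, a noncoding RNA whose RefSeq annotation overlaps the start of TGFB2 by 343 bases, had 8, 14 and 6 counts in IL-33 libraries, against 23, 15 and 11 in Control libraries. In CPM these were 0.853, 1.37 and 0.707 with IL-33, against 2.28, 1.80 and 1.99 in Control. All IL-33 values lay below the Control values, as in 3.51% of all genes tested. Its log2 fold change was -1.04 ± 0.70 with a 95% interval from -2.50 to 0.42, and the Benjamini-Hochberg adjusted p from edgeR was 0.999. Without a known strand setting, reads within this overlap are uncertain for both genes. This overlap lies at the start of TGFB2, while the kit reads near the poly(A) tail. TGFB2-OT1, annotated as a 3' overlapping noncoding RNA, shares exon bases with TGFB2 on the same strand and had 0 counts. Its part in the counts of TGFB2 was not tested.

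TGFB1I1, a focal adhesion adaptor gene, measured 224 ± 12.2 CPM with IL-33 and 229 ± 30.5 CPM in Control (SD, n = 3 each), a log2 fold change of -0.03 ± 0.11. TGFBRAP1, which encodes a protein that associates with TGF-beta receptors, had -0.04 ± 0.14. TGFBR3L had 8.42, 10.8 and 12.1 CPM in IL-33 libraries, against 9.43, 7.93 and 8.87 CPM in Control libraries, and its log2 fold change was 0.26 ± 0.28. IL1RL1, the gene of the IL-33 receptor, had 0, 8 and 0 counts in IL-33 libraries, against 0, 0 and 3 in Control libraries. It did not pass the low-count filter, and its part in the results was not tested. IL33 had 0 counts in every library.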
